A study of Mus musculus with 10 samples.

Results

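The step from day 0 to day 1 of reprogramming was described in the 4 libraries of these days, out of 10 libraries in the time course. The libraries were chosen by their labels alone, as OKS+DR_D0 and OKS+FoxO6_D0 at day 0 and OKS+DR_D1 and OKS+FoxO6_D1 at day 1. Mouse embryonic fibroblasts (MEFs) from E13.5 embryos of the strain labelled CBA/CaJ X C57BL/6J were infected with retroviruses made in PlatE packaging cells and then kept in iCD1, a defined reprogramming medium. Every library carried OKS, the reprogramming factors Oct4, Klf4 and Sox2, together with FoxO6 in one arm and with the red fluorescent protein DsRed (DR) as the control in the other. The methods describe cells of an Oct4-GFP reporter background infected in repeated rounds, and they name a TruSeq kit where the labels name a VAHTS kit. MEFs are a mixed primary population, and the vectors act in every cell they enter, so no promoter limits the factors to a cell type. There was 1 library per arm and day, and the labels do not say whether the libraries of an arm came from 1 infected culture. The question here was which genes changed over the first day in both arms. The arms stood in for replicates, so an adjusted p below measures the change against how far it differed between 2 arms, a spread moderated over genes. The arms also differ in FoxO6. The methods give DMEM with 10% FBS (serum) as the medium of MEFs, and iCD1 as the medium after infection. This change of medium, time since infection and time in iCD1 cannot be told apart.

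A fibroblast is held in shape by actin stress fibres that pull on a matrix of collagen and fibronectin. Free actin monomers hold the coactivator MRTF in the cytoplasm, and when actin polymerises MRTF joins the serum response factor SRF in the nucleus, where both switch on actin, calponin, transgelin and other contractile genes through a DNA element called the CArG box. TGF beta and the YAP and TEAD factors drive overlapping programmes of matrix, growth factor and adhesion genes in the same cells. Reprogramming to pluripotency begins with the loss of this mesenchymal state, and the endogenous pluripotency genes follow later.

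The 4 libraries held between 1206378 and 2221440 expected counts, the RSEM estimates of reads per gene. Levels are given in TPM, a share of transcripts that is scaled per length, from day 0 to day 1 and with OKS+DR before OKS+FoxO6. Changes are given as log2 fold changes of the counts from day 0 to day 1 with their standard error (written ±), from edgeR's quasi-likelihood test with arm as a block and Benjamini-Hochberg adjustment, and a gene was called at an adjusted p under 0.05. In OKS+FoxO6 the TPM of Foxo6 was 1017 and then 1325, and in OKS+DR it was 0.61 and then 1.55, so the arms carried their labels. The factors were already high at day 0, and how long after infection day 0 was taken is not given in the sources used here. Pou5f1 (Oct4) had a TPM that went from 2559.6 to 4168 in OKS+DR and from 3386 to 4742 in OKS+FoxO6, Sox2 one that went from 1814 to 2342 and from 2181 to 2839.96 and Klf4 one that went from 1329 to 2290.01 and from 1958 to 2323. None of these 4 genes was called in the reported edgeR fit or by DESeq2, while the length offset described below called Pou5f1, Klf4 and Sox2 higher, and 2 had an unadjusted p under 0.05, with log2 fold changes between 0.27 and 0.49, and reads of the vector and of the cell's own gene were not told apart.

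The label MEF was checked against fibroblast genes. All 12 listed fibroblast genes were tested and their TPM summed to between 5656 and 10630. Vimentin (Vim), an intermediate filament protein of mesenchymal cells, had a TPM that went from 3636 to 3342 in OKS+DR and from 2904 to 2068 in OKS+FoxO6. Markers of other cell types had lower sums, though some were detected. The 11 macrophage markers summed to a TPM of 21.8 and 35.4 at day 0 and of 83.4 and 34.1 at day 1, with Tyrobp and Fcer1g at 0 in every one of the 4 libraries and Csf1r at 0.49 or less. The 2 macrophage markers that passed the filter on low counts had log2 fold changes of 1.04 and 1.76 and were not called. The 10 endothelial markers summed to between 53.7 and 75.2, with Cldn5 at 0 throughout and Pecam1 at 1.58 or less. Of the 3 endothelial markers tested, Kdr was called higher (log2 fold change 2.40, adjusted p = 0.0038), but not in a fit of all 10 libraries. Of the 12 skeletal muscle markers, Myod1, Myog and Myf5 were at 0 and the sum lay between 13.8 and 52.1. The 11 neural markers summed to between 225 and 639.8, nearly all of it from Stmn2, Tubb3, Nes and Map2, while Dcx, Neurog2 and Snap25 were at 0. In bulk RNA a smaller share of a cell type and less RNA per cell cannot be told apart.

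Over the first day 537 of 10895 genes tested were called higher (4.93%) and 528 were called lower (4.85%). Of these, 215 genes (1.97%) were also at least 2-fold higher and 237 genes (2.18%) at least 2-fold lower in each arm by itself. All but 1 of the 537 higher genes and every one of the 528 lower genes changed in the same direction in both arms, which the call itself favours because the arms were its replicates. Of all 10895 genes 3706 were higher and 3714 lower in both arms. Across the 10895 genes the changes in the 2 arms had a Pearson r of 0.559 and a Spearman rho of 0.5, a description over genes that are not independent and share the libraries' depth. Leaving out 1 of the 4 libraries needed a fit over all the other libraries of the time course, so its counts are set beside a fit of all 10 libraries, which called 286 genes higher and 267 lower and so lost part of the calls with no library left out. In these fits 84 genes were called higher and 112 lower without OKS+DR_D0, 38 and 44 without OKS+DR_D1, 122 and 119 without OKS+FoxO6_D0, and 103 and 46 without OKS+FoxO6_D1. Of the 195 called genes that are named or listed below, 30 were called whichever library was left out and 103 were called in none of these fits, while the fit of all 10 libraries called 116. The 30 included Avil, Fetub, Glb1l2, Nfe2l3, Nnat, Notch4, Serpini1, Tfcp2l1 and Unc5d among the genes that rose, and Acta2, Actg2, Amotl2, Cnn2, Col12a1, Col1a1, Col5a1, Col8a1, Cspg4, Csrp1, Cyp1b1, F3, Fmod, Lox, Loxl1, Ltbp2, Myl9, Postn, Tagln and Thbs1 among those that fell.

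**Figure D1:**
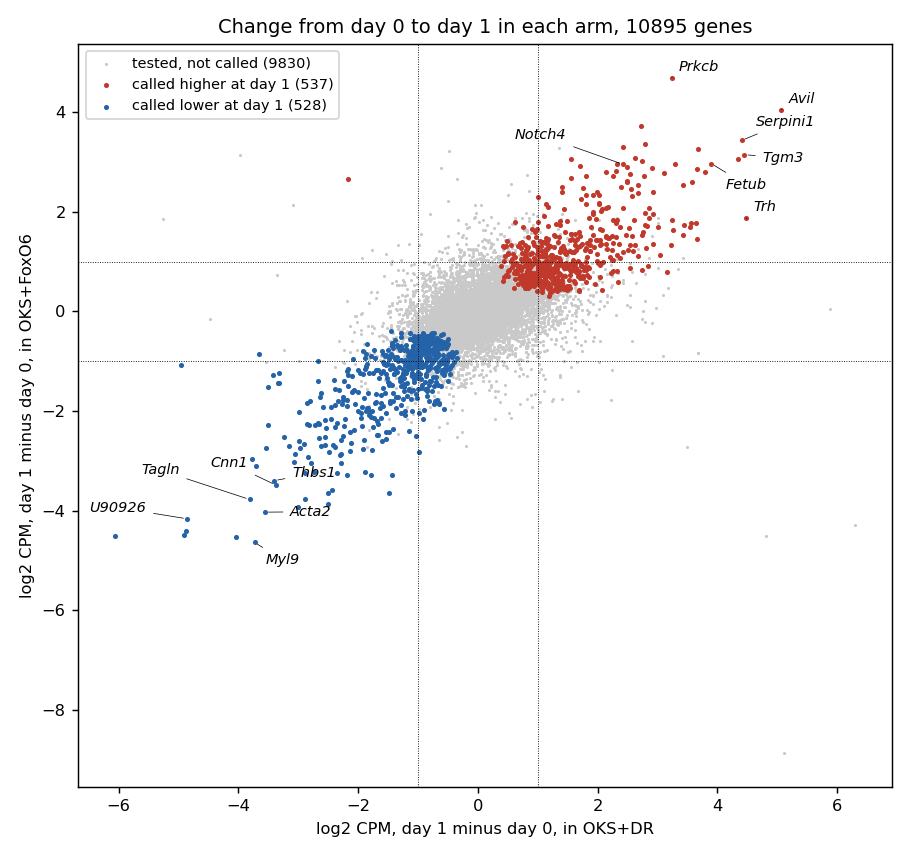
Each point is 1 of the 10895 genes tested, placed by its log2 CPM at day 1 minus day 0 in OKS+DR (horizontal) and OKS+FoxO6 (vertical), with called genes in red (537 higher) and blue (528 lower) and dotted lines at a 2-fold change. Called genes lie along the diagonal, with contractile and matrix genes such as Acta2, Tagln and Thbs1 at its lower end and Avil, Serpini1 and Prkcb at its upper end.

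The day 0 library of OKS+DR read transcripts of different lengths unlike the other 3. Among genes with a mean log2 CPM above 5, split into 5 bins by effective length, its median level relative to the mean of the other 3 libraries went from 0.269 in the shortest bin to -0.32 in the longest on the log2 scale. The other 3 libraries stayed between -0.11 and 0.141. From the shortest to the longest bin the median change over the first day rose from -0.243 to 0.345 in OKS+DR and only from -0.043 to 0.0608 in OKS+FoxO6. Calls followed length as well, from 28 higher and 70 lower in the shortest bin to 154 higher and 57 lower in the longest. Genes called higher had a median effective length of 3762 bases, against 2544 for genes called lower and 2638 for all tested. With an offset that removes each library's trend with length, 754 genes were called higher and 832 lower. This fit kept 520 of the 537 higher and 527 of the 528 lower calls, and 214 of the 215 and 237 of the 237 that were 2-fold in both arms.

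**Figure D2:**
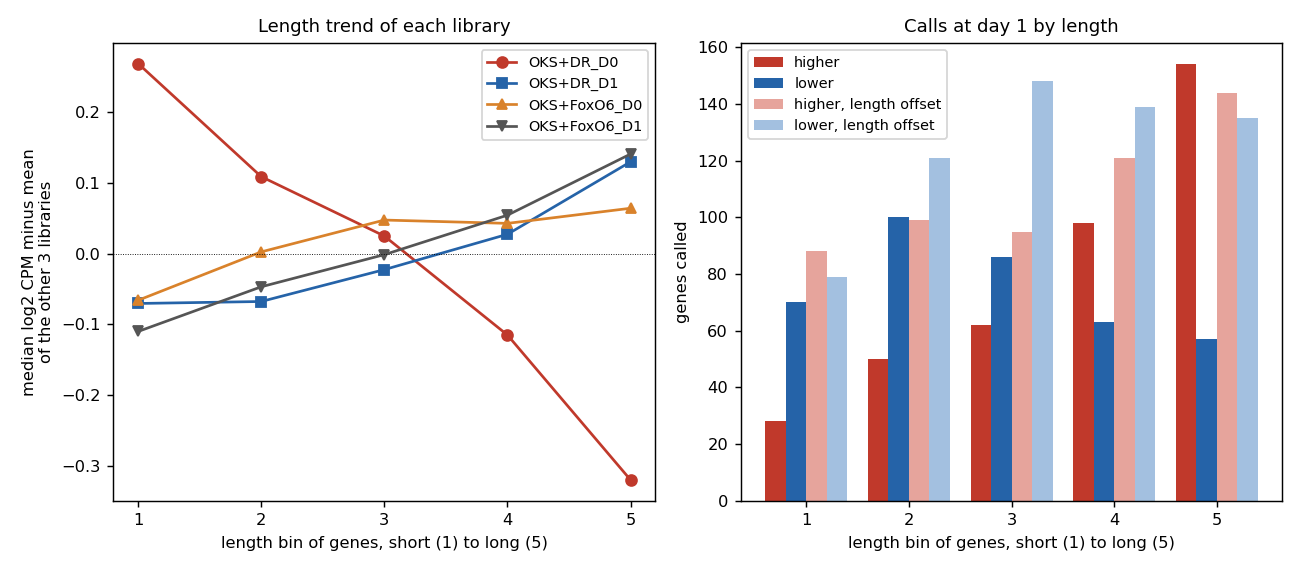
Left, the median log2 CPM of each of the 4 libraries minus the mean of the other 3, in 5 bins of genes from short to long effective length. Right, the number of genes called higher or lower at day 1 in each bin, without and with the length offset, where OKS+DR_D0 falls from 0.269 to -0.32 and the longest bin holds 154 higher calls without the offset and 144 with it.

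The contractile genes fell as a group. Of 22 targets of SRF and MRTF, all of them tested, 19 fell (86.4%, against 9.78% of all genes called in either direction), 12 of them at least 2-fold in both arms, none rose, and all 22 had lower counts at day 1 in both arms. Their median log2 fold change was -1.5, against 0.00377 over all genes tested, and their summed TPM went from 20010 and 18990 at day 0 to 8710 and 7159 at day 1. Shares called of the lists below are to be read against the same 9.78%. All lists were chosen with earlier results of these data known, so their shares are descriptions and no test of the lists. The length offset gave 21 lower of 22, all 10 libraries together gave 16, and leaving out 1 library left between 6 and 13.

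Smooth muscle actin, Acta2 (chr19:34241090-34255590), had a TPM that went from 3227 to 304 in OKS+DR and from 3673 to 232 in OKS+FoxO6. It fell about equally in both arms (log2 fold change -3.80 ± 0.18, adjusted p = 2.4e-06), and its TPM was between 29.3 and 72.8 in the 6 libraries of days 3 to 7. Transgelin (Tagln, chr9:45929619-45936058), an actin-bundling protein, had a TPM that went from 1205 to 95.1 in OKS+DR and from 1307 to 97.7 in OKS+FoxO6 (log2 fold change -3.81 ± 0.18, adjusted p = 2.4e-06). The regulatory light chain Myl9 of non-muscle and smooth muscle myosin had a TPM that went from 463 to 35.9 in OKS+DR and from 550.1 to 20.5 in OKS+FoxO6 (log2 fold change -4.26 ± 0.26, adjusted p = 8.8e-06). Calponin (Cnn1), which binds actin and slows myosin, had a TPM that went from 67.3 to 8.45 in OKS+DR and from 41.3 to 2.92 in OKS+FoxO6 (log2 fold change -3.87 ± 0.40, adjusted p = 0.00027). In each of these 4 genes both day 1 libraries lay far below both day 0 libraries. Without OKS+DR_D0, OKS+DR_D1 or OKS+FoxO6_D1 the call on Cnn1 was lost.

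Adhesion and filament genes of the same list moved less far. Zyxin (Zyx), a focal adhesion protein that senses tension, had a TPM that went from 2057 to 485 in OKS+DR and from 1458 to 464 in OKS+FoxO6 (log2 fold change -2.06 ± 0.17, adjusted p = 7.7e-05). Cnn2 had one that went from 349.7 to 79.5 and from 292 to 63.4 (log2 fold change -2.31 ± 0.18, adjusted p = 4.7e-05) and the LIM protein Csrp1 one that went from 266 to 84.7 and from 258 to 60.8 (log2 fold change -1.97 ± 0.19, adjusted p = 0.00019). In these 3 genes both day 1 libraries lay below both day 0 libraries. The enteric smooth muscle actin Actg2 had a TPM that went from 502 to 116 in OKS+DR and from 503 to 52.6 in OKS+FoxO6 (log2 fold change -2.80 ± 0.23, adjusted p = 9e-05). The cytoplasmic actins fell by smaller steps, Actb at -0.58 and Actg1 at -0.88 on the log2 scale, each below its day 0 level in both arms. Actins are close copies of each other, so reads split between Acta2, Actg2, Actb and Actg1 by the estimation carry some uncertainty. The alpha actinin Actn1 (-1.31), caldesmon (Cald1, -1.18) and the tropomyosins Tpm1 (-1.40), Tpm2 (-1.60) and Tpm4 (-0.55) fell too. Lmod1, Tagln2 and Srf itself did not pass the test, with log2 fold changes of -3.16, -0.48 and -0.68.

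Promoters of this list were searched for the CArG box, since SRF binds it, in the RefSeq windows of 300 bases that run from 250 before to 50 after each start (GRCm38.p6, both strands, with only exact matches counted). Of the 22 genes 19 had a window and 6 of them (31.6%) held the element: Actg1, Cnn2, Fhl2, Myl9, Srf and Vcl. Among all genes tested 133 of 8280 with a window (1.61%) held it, and among genes called and 2-fold lower in both arms 10 of 172 (5.81%) did, against 1 of 162 (0.617%) of those 2-fold higher. The stretches around the element are printed below for these 6 genes, of which Srf was not called, each read 5′ to 3′ on the gene's strand and ending at the RefSeq start at the latest, with the CArG box in capitals.
Myl9, chr2:156775263-156775352, plus strand: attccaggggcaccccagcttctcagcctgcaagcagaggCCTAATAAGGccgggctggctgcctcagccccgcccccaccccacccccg
Cnn2, chr10:79988504-79988593, plus strand: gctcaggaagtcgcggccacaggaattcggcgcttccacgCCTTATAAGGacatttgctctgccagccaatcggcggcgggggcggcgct
Fhl2, chr1:43163962-43164032, minus strand: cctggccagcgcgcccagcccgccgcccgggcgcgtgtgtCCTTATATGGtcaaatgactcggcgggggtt
Vcl, chr14:20929148-20929220, plus strand: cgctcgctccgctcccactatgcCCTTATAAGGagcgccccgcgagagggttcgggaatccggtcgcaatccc
Actg1, chr11:120348536-120348625, minus strand: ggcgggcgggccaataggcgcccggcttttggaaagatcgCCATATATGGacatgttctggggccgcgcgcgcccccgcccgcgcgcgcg
Srf, chr17:46556195-46556284, minus strand: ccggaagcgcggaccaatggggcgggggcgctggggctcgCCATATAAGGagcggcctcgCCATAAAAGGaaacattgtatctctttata
The Srf stretch holds the element at 2 places. Fhl2, a LIM protein that binds focal adhesions, fell (log2 fold change -2.19 ± 0.39, adjusted p = 0.0064), as did vinculin (Vcl), which links integrins to actin (log2 fold change -0.86 ± 0.17, adjusted p = 0.0098). The windows of Acta2 and Cnn1 held no exact match. CATTCC, the M-CAT motif of the TEAD factors, was in 7 of the same 19 windows on either strand (36.8%), against 14% of genes tested, and in 6 of 9 windows of the YAP and TEAD targets (66.7%). A match is a run of letters and not a measured binding site. Both lists hold targets of the factors that bind these motifs, so their shares describe the lists and not the change over the first day.

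**Figure D3:**
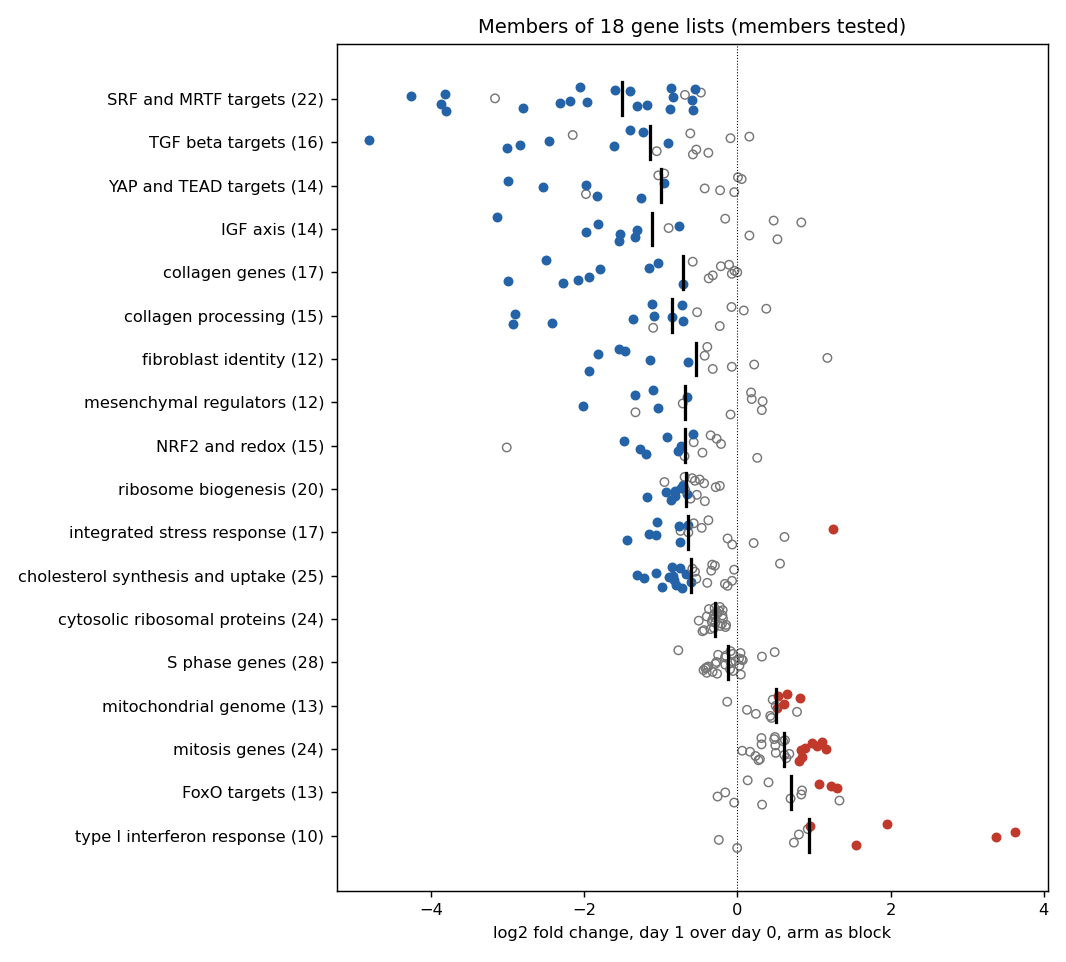
Each point is a tested member of 1 of 18 gene lists, placed by its log2 fold change from day 0 to day 1, filled red where called higher, filled blue where called lower and open where not called, with a black bar at the list's median. The SRF and MRTF targets lie wholly below 0 with a median of -1.5, and the mitosis genes lie wholly above 0 with a median of 0.604.

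Some of the genes that answer to TGF beta and to YAP and TEAD fell as well. Of 16 TGF beta targets 8 fell (50%), 6 at least 2-fold in both arms, and none rose (median -1.14). The fit of all 10 libraries gave 6, and leaving out 1 library left 3 or 4. Periostin (Postn), a matrix protein that binds integrins, had a TPM that went from 100.5 to 15.5 in OKS+DR and from 142 to 36.6 in OKS+FoxO6 (log2 fold change -2.46 ± 0.21, adjusted p = 9.1e-05). Ltbp2, a fibrillin-binding matrix protein, had one that went from 36.7 to 2.22 and from 19.5 to 4.78 (log2 fold change -2.84 ± 0.31, adjusted p = 0.00032). The inhibitory Smad6 and Smad7 and the inhibitors Id1 and Id2 did not pass the test, while Id3 fell (log2 fold change -3.01 ± 0.71, adjusted p = 0.025) from 40 counts at day 0 to 5 at day 1.

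Of 14 YAP and TEAD targets 6 fell (42.9%), 5 of them at least 2-fold in both arms, and none rose (median -0.999). The fit of all 10 libraries gave 5, and leaving out 1 library left between 2 and 4. The matricellular growth regulators Ctgf and Cyr61 fell, Ctgf with a TPM that went from 299 to 46.4 in OKS+DR and from 469 to 105 in OKS+FoxO6 (log2 fold change -2.54 ± 0.20, adjusted p = 5.4e-05) and Cyr61 with one that went from 301 to 66.1 and from 186 to 63.4 (log2 fold change -1.97 ± 0.21, adjusted p = 0.00033). Tissue factor (F3), which starts coagulation, had a TPM that went from 137 to 14.6 in OKS+DR and from 86.8 to 14.1 in OKS+FoxO6 (log2 fold change -2.99 ± 0.26, adjusted p = 0.00012). The angiomotin-like Amotl2, which restrains YAP, fell by 1.84 on the log2 scale. Axl, Lats2, Crim1 and Nuak2 did not pass, with log2 fold changes between -0.43 and 0.06. Thrombospondin 1 (Thbs1), a matricellular protein that activates latent TGF beta and belongs to neither list, had a TPM that went from 789.99 to 82.4 in OKS+DR and from 1345 to 132 in OKS+FoxO6 (log2 fold change -3.41 ± 0.16, adjusted p = 2.4e-06). By its scaled counts Thbs1 was 11.2-fold lower at day 1 (95% exact interval 10.5 to 11.9, for counting error only).

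The matrix genes did not fall as a whole. Of 17 collagen genes 9 fell (52.9%), 6 at least 2-fold in both arms, and none rose (median -0.709). The fit of all 10 libraries gave 7, and leaving out 1 library left between 4 and 6, with the median at -1.09 without OKS+DR_D1 and at -0.399 without OKS+FoxO6_D1. Col1a1, a chain of the main fibrillar collagen, had a TPM that went from 1354 to 453 in OKS+DR and from 1087 to 256 in OKS+FoxO6 (log2 fold change -1.94 ± 0.16, adjusted p = 7.9e-05). Its partner chain Col1a2 had one that went from 1615 to 1538 and from 1336 to 1048 (log2 fold change -0.32 ± 0.14, adjusted p = 0.18) and was not called, and neither was the fibrillar Col3a1 (-0.07). The fibril-associated Col12a1 (log2 fold change -2.28 ± 0.23, adjusted p = 0.00025), the type V chain Col5a1 (log2 fold change -1.79 ± 0.18, adjusted p = 0.00024) and Col8a1 (log2 fold change -2.50 ± 0.22, adjusted p = 0.00011) fell. The basement membrane chains Col4a1 and Col4a2 had log2 fold changes of -0.0020 and -0.04 and were not called.

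Of 15 genes that process collagen 9 fell (60%) and none rose (median -0.853). The fit of all 10 libraries gave 5, and leaving out 1 library left between 2 and 4. Lysyl oxidase (Lox), which crosslinks collagen and elastin, had a TPM that went from 349 to 45.9 in OKS+DR and from 533 to 84.7 in OKS+FoxO6 (log2 fold change -2.93 ± 0.19, adjusted p = 1e-05), and Loxl1 had one that went from 107 to 24.5 and from 87.8 to 15.4 (log2 fold change -2.41 ± 0.20, adjusted p = 9.1e-05). The prolyl hydroxylase subunits P4ha1, P4ha2 and P4ha3 fell by 0.85, 1.09 and 2.90 on the log2 scale, and Sparc, a collagen-binding glycoprotein, fell by 1.11. Of the 11 tested matrix proteases and inhibitors 4 fell (36.4%), among them Plaur, Timp2 and Timp3, and none rose. Their median was -0.796, and -0.471 without OKS+DR_D0. Fibromodulin (Fmod), which binds collagen fibrils, had a TPM that went from 30.4 to 3.89 in OKS+DR and from 25.5 to 1.19 in OKS+FoxO6 (log2 fold change -3.60 ± 0.41, adjusted p = 0.00048), and the proteoglycan Cspg4 one that went from 26.2 to 4.32 and from 14 to 1.11 (log2 fold change -3.13 ± 0.31, adjusted p = 0.00023).

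In the insulin-like growth factor axis both ligands and 5 of the 6 listed binding proteins fell. Of 14 listed genes 8 fell (57.1%), 7 at least 2-fold in both arms, and none rose (median -1.11). DESeq2's test called 5 of these 8, but not Igf1, Igfbp2 or Igfbp6. All 10 libraries together gave 4, and leaving out 1 library left 2 of them without OKS+DR_D0, 4 without OKS+FoxO6_D0 and 0 without OKS+DR_D1 or OKS+FoxO6_D1, with the median at -0.58 without OKS+DR_D1 and at -0.523 without OKS+FoxO6_D0. The ligand Igf2 had a TPM that went from 1172 to 496 in OKS+DR and from 1439 to 644 in OKS+FoxO6 (log2 fold change -1.34 ± 0.15, adjusted p = 0.00048), and the ligand Igf1 one that went from 20.6 to 6.31 and from 23 to 10.2 (log2 fold change -1.54 ± 0.39, adjusted p = 0.033). Among the binding proteins Igfbp3 had a TPM that went from 1459 to 552 in OKS+DR and from 1080.4 to 210.1 in OKS+FoxO6 (log2 fold change -1.98 ± 0.21, adjusted p = 0.00032), Igfbp7 fell by 1.83, Igfbp2 by 1.53, Igfbp4 by 1.32 and Igfbp6 by 0.77 on the log2 scale. Pappa, a protease that cuts Igfbp4, fell from 75 counts at day 0 to 7 at day 1. The binding protein Igfbp5 was not called (log2 fold change -0.90 ± 0.31, adjusted p = 0.096). The receptors and adaptors Igf1r, Igf2r, Insr, Irs1 and Irs2 were not called, with log2 fold changes between -0.16 and 0.83. The imprinted non-coding RNA H19, which neighbours Igf2, had a TPM that went from 461 to 80.5 in OKS+DR and from 656 to 169 in OKS+FoxO6 (log2 fold change -2.23 ± 0.20, adjusted p = 0.00013).

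Fibroblast identity was lowered in part. Of 12 fibroblast genes 6 fell (50%), Col1a1, Fn1, Fbn1, Thy1, Pdgfrb and S100a4, and none rose (median -0.535). The fit of all 10 libraries gave 5, and leaving out 1 library left between 1 and 3, with the median at -1.06 without OKS+DR_D1 and at -0.222 without OKS+FoxO6_D1. Fibronectin (Fn1) had a TPM that went from 1486 to 844 in OKS+DR and from 2161 to 843 in OKS+FoxO6 (log2 fold change -1.15 ± 0.16, adjusted p = 0.0016), and the surface glycoprotein Thy1, a common sorting marker of MEFs, one that went from 298 to 149 and from 347 to 146 (log2 fold change -1.55 ± 0.18, adjusted p = 0.00053). Vim, Dcn, Lum, Pdgfra, Col1a2 and Col3a1 were not called, with log2 fold changes between -0.43 and 1.17. Among 12 tested mesenchymal regulators 5 fell (41.7%), the transcription factors Snai1 (-2.02), Twist1 (-0.66), Twist2 (-1.34), Zeb2 (-1.10) and Runx1 (-1.04), and none rose. All 10 libraries together gave 2 calls, and none of the 5 was called by DESeq2's test or when any 1 of the 4 libraries was left out. Snai2, Zeb1 and Prrx1 were not called. The homeobox factor Prrx2 had a TPM that went from 35.9 to 3.83 in OKS+DR and from 52.7 to 7.79 in OKS+FoxO6 (log2 fold change -3.09 ± 0.41, adjusted p = 0.0014), a call that was lost whenever any 1 of the 4 libraries was left out.

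Most listed epithelial and pluripotency genes did not pass the filter on low counts at this depth. Of 23 epithelial genes 5 passed it, so these counts speak of the tested members alone. The desmosomal cadherin Dsc2 rose (log2 fold change 1.72 ± 0.26, adjusted p = 0.0032), as did desmoplakin, Dsp (log2 fold change 1.83 ± 0.41, adjusted p = 0.02), and keratin 19 (Krt19) fell (log2 fold change -2.44 ± 0.37, adjusted p = 0.0031). DESeq2's test called 1 of the 5 higher and 1 lower and did not call Dsp (adjusted p = 0.48). The median of the 5 was 1.26 in OKS+DR and 0.17 in OKS+FoxO6. E-cadherin (Cdh1) had a TPM that went from 3.9 to 12.2 in OKS+DR and from 0.58 to 3.35 in OKS+FoxO6 and was not called. Of 24 pluripotency genes 3 passed the filter, and Nanog, Dppa4, Lin28a, Nr5a2 and Utf1 were at 0 in every one of the 4 libraries. Tfcp2l1, a transcription factor of naive pluripotent cells, had a TPM that went from 0 to 3.44 in OKS+DR and from 0.39 to 4.49 in OKS+FoxO6, from 4 counts at day 0 and 58 at day 1 (log2 fold change 3.96 ± 0.71, adjusted p = 0.0068). Klf5 and Tbx3 were not called.

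Of 20 ribosome biogenesis genes 8 fell (40%), none rose and 19 had lower counts in both arms (median -0.669). DESeq2's test called 2 of the 20 and all 10 libraries together gave 3. The calls on these 8 genes were lost whichever of the 4 libraries was left out, with the median between -0.818 and -0.512. Examples were the nucleolar GTPase Gnl3 (log2 fold change -1.19 ± 0.21, adjusted p = 0.0071) and the pseudouridine synthase Dkc1 (log2 fold change -0.86 ± 0.24, adjusted p = 0.046). None of 24 cytosolic ribosomal protein genes was called by edgeR or DESeq2 (5 had an unadjusted p under 0.05, all lower), with a median of -0.291 that was -0.479 in OKS+DR and -0.119 in OKS+FoxO6. These genes are short, and the length offset gave a median of -0.136. It was -0.0848 without OKS+DR_D0 and -0.492 without OKS+FoxO6_D0.

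Of 25 genes of cholesterol synthesis and uptake 13 fell (52%) and none rose (median -0.606). The lanosterol synthase Lss had a TPM that went from 189 to 82.1 in OKS+DR and from 131 to 55.3 in OKS+FoxO6 (log2 fold change -1.31 ± 0.18, adjusted p = 0.0017). The isomerase Idi1 had one that went from 295 to 105 and from 161 to 91.5 (log2 fold change -1.21 ± 0.21, adjusted p = 0.0055). For both genes the day 1 libraries were lower than the day 0 library of their own arm, but the day 0 level itself was higher in OKS+DR. The fit of all 10 libraries gave 7 calls, and leaving out 1 library left 1 of the 25 called without OKS+DR_D0 (median -0.298), 0 without OKS+DR_D1 (median -0.696), 6 without OKS+FoxO6_D0 (median -0.934) and 1 without OKS+FoxO6_D1 (median -0.59). The sterol regulatory element, TCAC and then CCAC with 1 base of any kind between on either strand, was found in 1 of the 17 windows of these genes (5.88%, against 1.35% of genes tested). Of 5 tested targets and members of the LXR receptors 1 was called (20%). This was Abca1, which exports cholesterol and rose (log2 fold change 1.97 ± 0.26, adjusted p = 0.0014), with a TPM that went from 32.6 to 226 in OKS+DR and from 47.1 to 124 in OKS+FoxO6.

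Of 15 NRF2 and redox genes 7 fell (46.7%) and none rose (median -0.69). Sulfiredoxin (Srxn1) had a TPM that went from 218 to 99.8 in OKS+DR and from 212 to 84.2 in OKS+FoxO6 (log2 fold change -1.47 ± 0.17, adjusted p = 0.00052), and Gclm, a subunit of the enzyme that limits glutathione synthesis, fell by 1.20 on the log2 scale. All 10 libraries together gave 3 calls, without OKS+DR_D0 none of the 15 was called, and without any other library 1 was. Of 17 tested genes of the integrated stress response 7 fell and 1 rose (47.1%), of which DESeq2's test called 1 and 1, all 10 libraries together gave 4 and 1, and leaving out 1 library left between 0 and 2 of the falls. The transcription factor Atf4 fell (log2 fold change -0.75 ± 0.18, adjusted p = 0.024), with its targets Slc3a2 (-0.77), Slc7a5 (-1.05) and Mthfd2 (-1.06), while the leucine sensor Sesn2 rose (log2 fold change 1.24 ± 0.19, adjusted p = 0.0029). Of 8 genes of iron storage and metallothioneins 5 fell (62.5%), among them both ferritin chains, Fth1 (-0.66) and Ftl1 (-0.52), and the transferrin receptor Tfrc (-1.22), while DESeq2's test called none of the 8.

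Of 24 tested mitosis genes 8 rose (33.3%), none fell and 17 had higher counts in both arms (median 0.604, against 0.348 in OKS+DR and 0.821 in OKS+FoxO6). The proliferation marker Mki67 had a TPM that went from 67.8 to 131 in OKS+DR and from 51.2 to 119 in OKS+FoxO6 (log2 fold change 0.98 ± 0.17, adjusted p = 0.0055). The spindle motor Kif11 had one that went from 27.7 to 54.4 and from 22.3 to 54.7 (log2 fold change 1.04 ± 0.20, adjusted p = 0.009), and the spindle protein Nusap1 one that went from 23.9 to 55.1 and from 25 to 56.4 (log2 fold change 1.10 ± 0.21, adjusted p = 0.0092). Aurka, Bub1b, Cenpe, Cenpf and Hmmr rose too, by 0.80 to 1.16. All 10 libraries together gave 4 calls. None of the 8 was kept when any 1 of the 4 libraries was left out, DESeq2's test called 1 and the length offset called 14. S phase genes did not move with them: none of 28 was called in the reported edgeR fit or by DESeq2 (1 had an unadjusted p under 0.05), the length offset called 1 higher, and their median was -0.369 in OKS+DR and 0.0998 in OKS+FoxO6. That difference between the arms was not tested.

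The windows of the mitosis genes were searched for TTTGAA, the core of the cell cycle homology region (CHR) through which such genes are repressed outside of division, on both strands. Of 20 mitosis genes with a window 15 (75%) held it, against 1161 of 8280 genes tested (14%) and 71 of 407 genes called higher (17.4%). Among genes called and 2-fold higher in both arms 21 of 162 (13%) held it. Stretches before the start of 2 genes that rose and of Cdk1, the kinase that drives mitosis and was not called (log2 fold change 0.06 ± 0.19, adjusted p = 0.88), are printed with the match in capitals, which reads TTCAAA where it lies on the other strand.
Mki67, chr7:135716450-135716535, minus strand: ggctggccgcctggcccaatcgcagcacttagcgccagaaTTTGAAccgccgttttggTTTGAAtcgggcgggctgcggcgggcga
Kif11, chr19:37376323-37376381, plus strand: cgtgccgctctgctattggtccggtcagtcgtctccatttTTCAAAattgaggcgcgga
Cdk1, chr10:69352913-69352967, minus strand: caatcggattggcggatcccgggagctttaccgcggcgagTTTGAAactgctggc
The Mki67 stretch holds the letters at 2 places. The share of 75% describes the listed mitosis genes, called or not, and not the change over the first day.

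All 13 protein genes of the mitochondrial genome were tested, 5 rose (38.5%) and none fell (median 0.50). Their summed TPM was 58330 and 57520 at day 0 and 78980 and 86370 at day 1 in OKS+DR and OKS+FoxO6. Cytochrome b (mt-Cytb) had a TPM that went from 5129 to 7611 in OKS+DR and from 5100.1 to 8101 in OKS+FoxO6 (log2 fold change 0.52 ± 0.14, adjusted p = 0.043). All 10 libraries together gave 1 call, leaving out any 1 of the 4 libraries left none, DESeq2's test called 1 and the length offset called 11. None of 19 nuclear genes of the respiratory chain was called in the reported edgeR fit or by DESeq2, 1 had an unadjusted p under 0.05, and their median was -0.0211. The length offset turned this median to 0.115 and called 1 of the 19 higher. Without OKS+DR_D0 the median was 0.167 and without OKS+FoxO6_D0 it was -0.132.

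Some genes of the type I interferon response rose from low levels. Of 22 type I interferon genes 10 passed the filter, 5 rose (50%) and none fell (median 0.932, with 0.498 without OKS+DR_D0 and 1.91 without OKS+FoxO6_D0). The summed TPM of all 22 was 126 and 129 at day 0 and 368.5 and 236 at day 1. Xaf1 had a TPM that went from 6.9 to 56.8 in OKS+DR and from 7.37 to 28.5 in OKS+FoxO6 (log2 fold change 1.95 ± 0.39, adjusted p = 0.012). Oas1a, which makes the second messenger that activates RNase L, rose from 3 counts at day 0 to 41 at day 1, a ratio of 14.2 by scaled counts (95% exact interval 4.54 to 71.9, for counting error only). The RNA sensor Ddx58 (RIG-I) and the signalling factor Stat2 rose by 1.54 and 0.94, while Bst2, Ifih1, Ifit2 and Irf9 were tested and not called, with log2 fold changes between -0.24 and 0.80, and Isg15, Ifit1 and Rsad2 did not pass the filter. DESeq2's test and all 10 libraries together each called 1 of the 10. Without OKS+FoxO6_D0 Ddx58 alone was still called, and without any other 1 of the 4 libraries none of the 5 was. The windows of 9 of the 17 listed genes with one (52.9%), and of 5 of the 9 among those tested (55.6%), held the core of the interferon-stimulated response element, GAAA and again GAAA with 2 bases of any kind between, on either strand, against 295 of 8280 genes tested (3.56%). These shares describe the listed interferon genes, called or not, and not the change over the first day. The Oas1a stretch is printed with its overlapping matches in capitals.
Oas1a, chr5:120907526-120907585, minus strand: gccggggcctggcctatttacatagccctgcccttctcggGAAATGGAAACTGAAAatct

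Among targets of the FoxO factors 13 were tested, 3 rose (23.1%) and none fell (median 0.694), DESeq2's test called 1, all 10 libraries together gave 2, and leaving out 1 library left 0 or 1, with the median at 0.454 without OKS+DR_D0. The sestrins Sesn1 (log2 fold change 1.30 ± 0.35, adjusted p = 0.045) and Sesn3 (log2 fold change 1.22 ± 0.20, adjusted p = 0.0045) and the mitochondrial superoxide dismutase Sod2 (log2 fold change 1.07 ± 0.20, adjusted p = 0.0076) rose. Sod2 had a TPM that went from 23 to 48.8 in OKS+DR and from 31.1 to 73 in OKS+FoxO6. Sesn3 had one that went from 9.94 to 32.6 and from 32.6 to 69.7, so its day 0 level was already higher in OKS+FoxO6. Of 16 tested p53 targets 4 rose (25%), Sesn1, Sesn2, Ccng1 and Trp53inp1, and none fell. DESeq2's test and all 10 libraries together each called 2, leaving out 1 library left 0 or 1, and the median of 0.301 was 0.618 without OKS+DR_D0 and 0.149 without OKS+FoxO6_D0. Of 14 ERK feedback genes 3 fell and 1 rose (28.6%), with Epha2 and Phlda1 falling by 0.92 and 0.80. DESeq2's test and all 10 libraries together each called 1 and 1, and leaving out 1 library left 2 falls without OKS+DR_D0 and 0 without any other. The phosphatase Dusp5 fell (log2 fold change -2.11 ± 0.36, adjusted p = 0.0054) and Spry4, an inhibitor of receptor tyrosine kinase signalling, rose (log2 fold change 1.12 ± 0.22, adjusted p = 0.0096). Of 18 AP-1 and immediate early genes 3 fell, Fosl1, Fosl2 and Jun (16.7%, against 9.78% of all genes tested). DESeq2's test called 1 of the 18 and all 10 libraries together 2, and the calls on Fosl2 and Jun were lost whichever library was left out.

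The 15 highest and 15 lowest genes were ranked among protein-coding genes called, at least 2-fold changed in both arms and with at least 100 counts. Those that rose were of many kinds and came from low levels. Avil (chr10:127000709-127020994), an actin-severing protein of the villin family, had a TPM that went from 5.73 to 241 in OKS+DR and from 2.75 to 66.2 in OKS+FoxO6 (log2 fold change 4.87 ± 0.28, adjusted p = 5.5e-06). Its TPM was between 179.9 and 490.3 from day 3 to day 7. The protein kinase C isoform Prkcb had a TPM that went from 8.56 to 87.8 in OKS+DR and from 1.02 to 61.2 in OKS+FoxO6 (log2 fold change 4.36 ± 0.49, adjusted p = 0.00042), and neuroserpin (Serpini1), an inhibitor of tissue plasminogen activator, one that went from 0.77 to 30.5 and from 2.48 to 33.8 (log2 fold change 4.08 ± 0.37, adjusted p = 0.00013). In all 3 genes both day 1 libraries lay above both day 0 libraries. Without OKS+DR_D1 or OKS+FoxO6_D0 the call on Prkcb was lost.

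Fetub, a secreted fetuin, had a TPM that went from 11.8 to 222 in OKS+DR and from 13.9 to 116 in OKS+FoxO6 (log2 fold change 3.53 ± 0.28, adjusted p = 6.8e-05). The transcription factor Nfe2l3, a relative of NRF2, had one that went from 9.91 to 127 and from 33 to 217 (log2 fold change 2.97 ± 0.25, adjusted p = 9.3e-05), and the receptor Notch4 one that went from 7.59 to 64.1 and from 7.13 to 77.1 (log2 fold change 2.77 ± 0.23, adjusted p = 7.7e-05). The imprinted proteolipid Nnat had a TPM that went from 12.1 to 121 in OKS+DR and from 16.6 to 90.8 in OKS+FoxO6 (log2 fold change 2.77 ± 0.30, adjusted p = 0.00037). The calls on these 4 genes held in every one of the 11 alternative fits. Trh, the precursor of thyrotropin-releasing hormone, had a TPM that went from 1.17 to 68.9 in OKS+DR and from 5.5 to 25.8 in OKS+FoxO6 (log2 fold change 3.29 ± 0.60, adjusted p = 0.0072) and between 447 and 3251 from day 3 to day 7, so that its first-day rise was small beside its later level. The transglutaminase Tgm3 rose from 3 counts at day 0 to 119 at day 1, a ratio of 41.3 (95% exact interval 13.8 to 203).

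The remaining members of the 15 highest were Msc, Glb1l2, Unc5d, Pcsk1n, Prrt4 and Spn, with log2 fold changes between 2.67 and 3.09. Msc, a basic helix-loop-helix repressor, was unlike the rest in having a day 1 level in OKS+FoxO6 below its day 0 level in OKS+DR (from 12.8 to 159.7 and from 2.16 to 12.6), and without OKS+DR_D1 its adjusted p was 0.862. Msc, Trh and Prrt4 were not called with all 10 libraries together either, nor with any 1 of the 4 left out. That on Tgm3 was lost without OKS+DR_D0, OKS+DR_D1 or OKS+FoxO6_D0, that on Pcsk1n without OKS+DR_D1 or OKS+FoxO6_D0 and that on Spn without OKS+DR_D1. In the panels of single genes, the matrix and contractile genes stayed below both day 0 libraries through day 7, and Avil, Notch4 and Trh stayed above them.

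**Figure D4:**
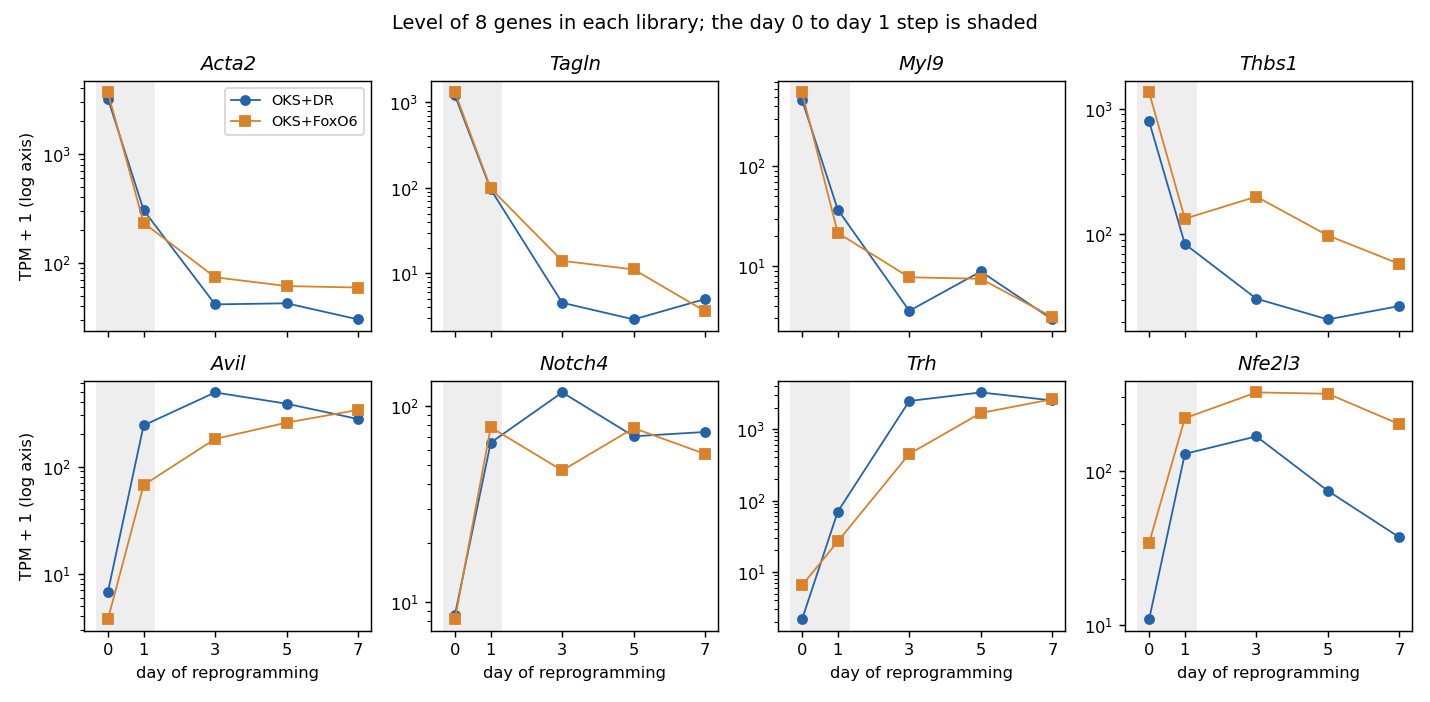
The TPM plus 1 on a log axis of 8 genes in each of the 10 libraries, against the day, with OKS+DR as blue circles and OKS+FoxO6 as orange squares and the first day shaded; there is 1 library per point and no error bar. Acta2, Tagln, Myl9 and Thbs1 fall over the shaded day in both arms, and Avil, Notch4, Trh and Nfe2l3 rise.

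Among the 15 lowest, U90926 had a TPM that went from 207 to 2.87 in OKS+DR and from 89 to 0 in OKS+FoxO6, from 107 counts at day 0 to 1 at day 1, a ratio of 103 with a 95% exact interval of 18 to 4092. The orphan receptor Gpr176 (log2 fold change -3.83 ± 0.45, adjusted p = 0.00059), the adipogenesis-associated Medag (log2 fold change -4.64 ± 0.57, adjusted p = 0.00078) and the cytochrome Cyp1b1 (log2 fold change -3.18 ± 0.30, adjusted p = 0.00018), an oxidase of steroids and xenobiotics, fell too. The call on U90926 was lost without OKS+DR_D0 or OKS+DR_D1, that on Medag without OKS+DR_D1, OKS+FoxO6_D0 or OKS+FoxO6_D1 and that on Gpr176 without OKS+DR_D1 or OKS+FoxO6_D1. Medag had a TPM that went from 5.35 to 0 in OKS+DR and from 36.7 to 1.68 in OKS+FoxO6, so the arms started from unequal levels.

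Repeat-like and ribosomal RNA-like transcripts fell at the same step. Gm10718, Gm10800 and the non-coding Gm26870 had a TPM that went from 275 to 5.71 and from 1156 to 48.8, from 122 to 4.64 and from 772 to 30.6 and from 1347 to 20.6 and from 7255 to 327, with OKS+DR before OKS+FoxO6 for each. Of their runs of 31 bases, 84.8%, 42% and 75.2% also occurred in transcripts of other genes, so reads of this family cannot be placed on 1 gene and these 3 values are uncertain. Gm10718 and Gm10800 were not called when any 1 of the 4 libraries was left out. Gm42418, which lies over a ribosomal RNA pseudogene in RefSeq and shares 96.3% of its runs with other genes, had a TPM that went from 286 to 30.6 in OKS+DR and from 213 to 93.5 in OKS+FoxO6 (log2 fold change -2.16 ± 0.38, adjusted p = 0.0058), and its neighbour Gm26917 one that went from 402 to 37.2 and from 359 to 176 (log2 fold change -2.26 ± 0.38, adjusted p = 0.0052). Whether the carry-over of ribosomal RNA differed between libraries, and its part in the other results, was not tested. Among the other non-coding genes called and 2-fold in both arms, the small nucleolar RNA host Snhg5 fell and Ptprv, Trerf1 and RP24-286J21.7 rose.

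Other lists held few calls, and in several of them the share called was near the 9.78% of all genes tested. None of the 2 replication dependent histones and 2 macrophage markers that passed the filter was called in the reported edgeR fit or by DESeq2, with 0 and 1 at an unadjusted p under 0.05, and the length offset called 1 of the 2 macrophage markers higher. Of 10 tested hypoxia targets 4 fell, Adm, P4ha1, Slc2a1 and Vegfa, and none rose (40%). DESeq2's test called 2 of these, all 10 libraries together gave 1, leaving out 1 library left between 0 and 2, and Slc2a1 had a log2 fold change of 0.12 without OKS+FoxO6_D0. Of 18 tested glycolysis genes and 18 genes of the unfolded protein response 3 and 2 fell, and of 13 heat shock and 13 tested fatty acid synthesis genes 2 fell in each. DESeq2's test called 0, 1, 0 and 1 of these 4 lists, and all 10 libraries together gave 0, 0, 1 and 1. The length offset called 3, 3, 2 and 6 lower, and 2 glycolysis genes higher. Of 12 tested chemokines and NF-kB targets 2 fell, Cxcl12 and Ptgs2. The rest were 1 or 2 calls among the tested members: Glul rose among 10 glucocorticoid targets, Apcdd1 among 7 Wnt feedback targets, Gbp7 among 10 interferon gamma genes and Kdr among 3 endothelial markers, Nes and Tubb3 fell among 4 neural markers, and Des fell among 2 skeletal muscle markers. Of 6 tested complement and acute phase genes 2 were called higher, C1qtnf1 and Serpina3n, and Serpina3n was the 1 called gene with opposite changes in the arms, with a TPM of 3.87 at day 0 and 0 at day 1 in OKS+DR and of 56.2 and 372 in OKS+FoxO6.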

How the data were processed

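RNA-seq libraries of days 0 and 1 were compared, 1 per arm and day, grouped by their titles. The authors used RSEM with Bowtie2 on the GENCODE M13 transcriptome (mm10), and the deposited expected counts are its raw estimates. TPM and FPKM, which the authors also took from RSEM, were deposited beside them, and FPKM were not used here. Expected counts of the 4 libraries were rounded and fitted with edgeR 4.0.16 in R 4.3.3 (TMM, filterByExpr by day, glmQLFit with arm and day, 1 residual degree of freedom moderated by a prior of 9.526). A change within 1 arm used log2 CPM with a prior count of 2. DESeq2 1.42.0, limma 3.58.1 on log2(TPM + 1), other filters and size factors, a length offset, all 10 libraries and each library left out were alternatives. The sum of 3 counts over a day was the floor for folds against a day at 0 counts. Named genes were the 15 highest and 15 lowest protein-coding genes called, 2-fold in both arms and with at least 100 counts, and the listed genes. Results for 3 of these genes are not reported here. Members and lists were chosen with earlier results of these data known. On simulated data edgeR recovered 112 of 200 genes changed 2-fold among 10700 with 8 false calls, and 183 of 200 changed 4-fold among 10702 with 1. The simulation used a common dispersion, the same change in both arms and no length trend, so these rates need not hold for the real libraries. Gene positions came from GENCODE M21 (GRCm38) and promoters from RefSeq. Python 3.11.15 searched motifs. Intervals cover counting error only.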

Additional observations from a re-analysis of the deposited data

Results flagged for a closer look

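Some values moved in opposite directions in the arms, and none of these differences was tested, since each arm has 1 library per day. The median log2 change of 28 S phase genes was -0.369 in OKS+DR and 0.0998 in OKS+FoxO6. That of 19 nuclear genes of the respiratory chain was -0.135 in OKS+DR and 0.0751 in OKS+FoxO6. Among single genes, 33 of 10895 changed at least 2-fold in opposite directions, 22 of them higher in OKS+DR and lower in OKS+FoxO6 and 11 the reverse.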

How the results depend on the processing

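With 1 library per arm and day, p-values rest on how far the change over the first day differed between the 2 arms. This spread had 1 residual degree of freedom per gene and was moderated over genes by a prior of 9.526. Depth limits the calls, and a gene of few counts may have changed without being called. Across the alternatives, DESeq2 size factors, no filter and a prior count of 0.5 kept all 4 counts within 1.5 times. DESeq2's test called 187 genes higher and 189 lower, with 119 and 136 at least 2-fold in both arms. The length offset called 832 lower. All 10 libraries together called 286 higher and 267 lower. Without the arm term 43 were called higher and 68 lower, all of them 2-fold in both arms. limma on log2(TPM + 1) called 324 lower, and 57.3% of its calls were higher against 50.4% in the reported fit, with the median of all genes at 0.106 on that scale. Leaving out 1 library gave 38 to 122 genes higher and 44 to 119 lower, and 38 to 122 and 44 to 114 at least 2-fold in the arms left, where an arm with a missing library was not counted. These fits hold fewer samples at the step and are also of the form of the fit of all 10 libraries. Of the 195 named or listed genes called, the log2 fold change reversed for Serpina3n with DESeq2 (-1.09) and without OKS+FoxO6_D1 (-4.83, the lowest of a range up to 2.54 with 1 library left out) and for Slc2a1 without OKS+FoxO6_D0 (0.12, the highest of a range down to -1.49), and for no other of these genes in the alternatives run. The causes were not tested. No paired analysis beyond the arm term was possible because each arm and day has 1 library.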
